A study of Saccharomyces cerevisiae with 4 samples.

Results

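The genes described here encode 60 ribosome biogenesis factors of *Saccharomyces cerevisiae*, the proteins that process, modify and fold ribosomal RNA (rRNA) and assemble it with ribosomal proteins. They were chosen by name, from a list of nucleolar factors whose genes are usually expressed in step with growth, and were found on the array through their open reading frames. All 60 had 1 probe each, out of 6256 gene probes, and 6252 genes entered the tests. Total RNA of *esl1Δ esl2Δ* double mutants was compared with that of wild-type cells in 3 biological replicates on 4 Agilent two-color arrays, with both strains hybridized to each array. The mutants carried *esl1Δ::KAN* and *esl2Δ::NAT* in strain Y52 (W303-1a). Both strains thus shared the *MATa* mating type, the markers *trp1-1*, *ura3-1*, *ade2-1*, *leu2-3, 122* and *can1-100*, and *RAD5*, and both were in log phase in rich medium with 2% glucose (YPD) at 30°. Mutant RNA was labeled with Cy5 and wild-type RNA with Cy3 on 3 arrays, 1 for each replicate. The fourth array, a dye swap, repeated the RNA of replicate 3 with the dyes exchanged, so that in replicates 1 and 2 an effect of strain and an effect of dye on a gene cannot be told apart.

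A ribosome begins in the nucleolus, where RNA polymerase I transcribes a long precursor rRNA. Small nucleolar ribonucleoproteins (snoRNPs) guide its methylation and pseudouridylation, the U3 snoRNP and the UTP complexes build the small subunit processome around its 5′ part, and further factors, many of them RNA helicases, fold and cleave the remainder into the large subunit. In budding yeast the genes for these factors are known to be transcribed together with the ribosomal protein genes, at a rate set by nutrients through the TOR and protein kinase A pathways.

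All values are log2 ratios of *esl1Δ esl2Δ* over wild-type after background correction and loess normalization, unless they are called levels, which are normalized log2 intensities of 1 strain. The ratio of replicate 3 is the mean of its 2 arrays. The deletion was seen in every replicate: the *ESL1* probe had ratios of -4.77, -4.33 and -4.41 and the *ESL2* probe -3.65, -3.99 and -3.65 in replicates 1, 2 and 3. Per channel, gene spots had a median intensity of 1660 to 5186 over a background of 22 to 49.5, and no gene spot was saturated. The probes of all 60 factors were well above background in both strains on 4 of 4 arrays. Probes of 5 *MATa*-specific genes were also well above background on every array, as were those of the α-specific genes *STE3* and *SAG1*, while *MF(ALPHA)1* was so on 3 of 4 arrays and *MF(ALPHA)2* on 2 of 4. This flag alone does not show expression, since the *ESL1* and *ESL2* probes also passed it in the mutants on 4 of 4 arrays. Their mutant levels were 6.87 to 7.95. Over both strains, levels were 7.27 to 8.05 for *STE3* and higher, at 9.33 to 10.03, for *SAG1*. The lowest level of the 60 factors was 10.05. The 60 ratios had medians of -0.59, -0.46 and 0.19 in replicates 1, 2 and 3, where the medians over all genes were 0.00, -0.01 and 0.00.

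The biogenesis factors were lower in *esl1Δ esl2Δ* than in wild-type cells in replicates 1 and 2, and mostly higher in replicate 3. In replicate 1, 60 of 60 had a ratio below 0, against 49.8% of all genes, and the ratios ran from -0.94 to -0.23. In replicate 2, 59 of 60 were below 0, against 50.9% of all genes, with *KRR1*, a KH-domain factor of the small subunit, as the exception at 0.13, where 49.1% of all genes were above 0. In replicate 3 only 9 were below 0 and 51 were above it, against 49.8% and 50.2% of all genes. The reversal ran through nearly the whole set, since 60 of 60 ratios were lower in replicate 1 than in replicate 3 and 59 of 60 were lower in replicate 2 than in replicate 3. Taken by gene, 50 of the 60 were below 0 in replicates 1 and 2 and above 0 in replicate 3, a pattern that 18.9% of all genes showed.

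**Figure D1:**
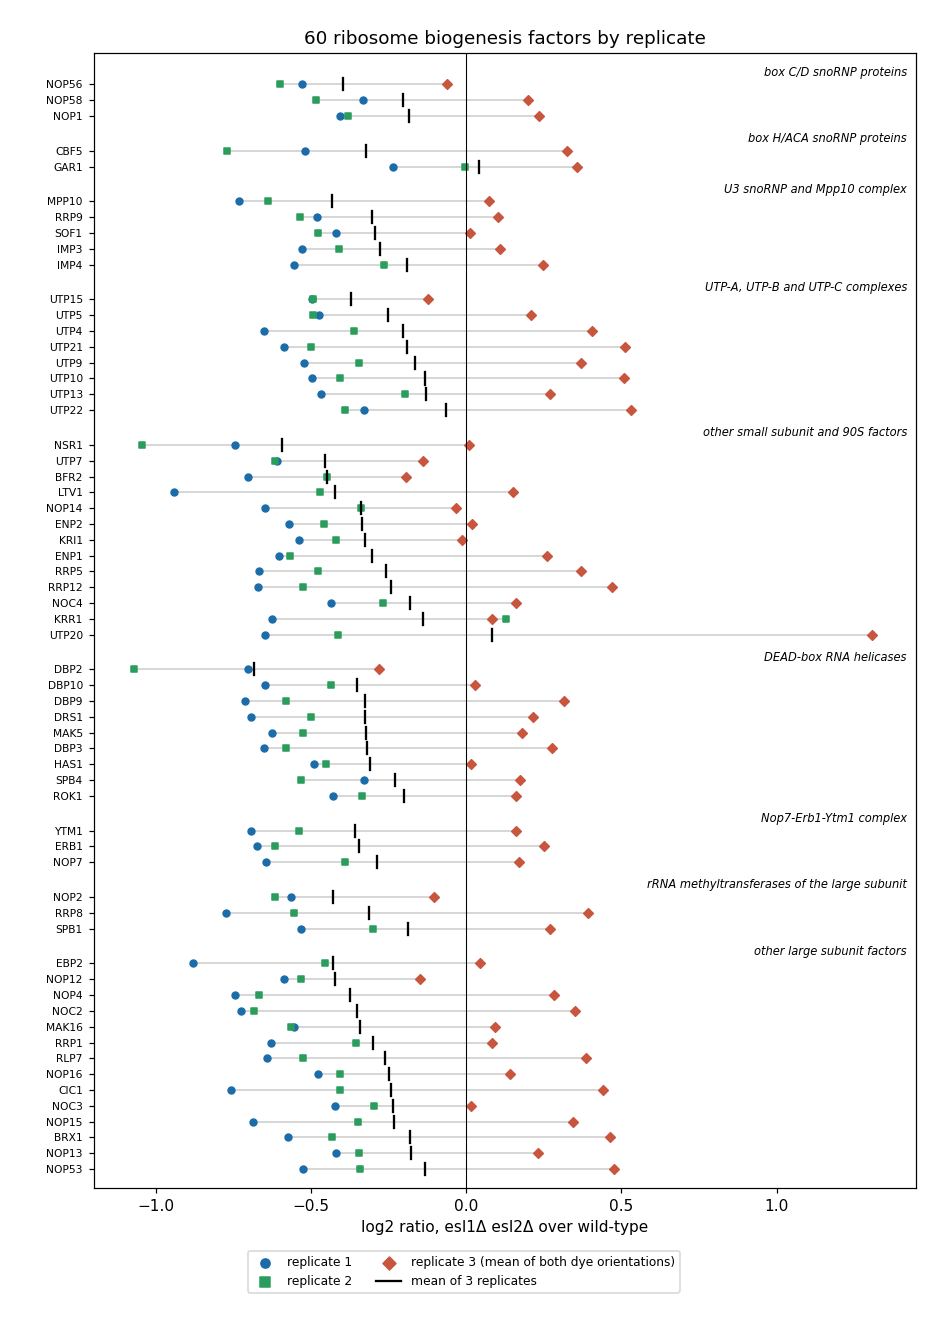
Log2 ratios of *esl1Δ esl2Δ* over wild-type for the 60 biogenesis factors, grouped by role, with 1 dot for each replicate and a black tick at the mean of the 3. The dots of replicates 1 and 2 lie left of 0 but for *KRR1* in replicate 2, and those of replicate 3 lie right of 0 for 51 of the 60.

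The sizes were moderate. A difference of 1.5-fold or more was reached downward by 31 factors in replicate 1 (3.65% of all genes), by 10 in replicate 2 (4.62%) and by 0 in replicate 3 (3.95%). Upward it was reached by 0, 0 and 1 factors in replicates 1, 2 and 3 (3.26%, 6.81% and 5.98% of all genes). The 1 factor above was *UTP20*, which encodes a very large HEAT-repeat protein of the small subunit processome.

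With replicate 3 included, the means over 3 replicates were small beside their spread. The median of the 60 mean ratios was -0.30, with quartiles of -0.35 and -0.20 and a range of -0.68 to 0.08, and the mean of the 3 replicate medians was -0.29 ± 0.42 (SD, n = 3). The median was -0.14 without replicate 1, -0.19 without replicate 2, -0.52 without replicate 3 and -0.029 with all 4 arrays in 1 fit with a dye term, where 21 of the 60 had the opposite sign to their mean. The SD over replicates was larger than the mean ratio itself for 45 of the 60. By limma with Benjamini-Hochberg adjustment over all genes, 0 of 60 were called at an adjusted p below 0.05 (0.112% of all genes), and the smallest adjusted p among them was 0.234. Before adjustment 8 had a limma p below 0.05, all of them lower, against 5.39% of all genes lower and 7.93% higher. With 3 replicates, an exact two-sided sign test of 1 gene cannot go below a p of 0.25.

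Leaving out replicate 3 decided the call. On replicates 1 and 2 alone, limma called 43 of the 60, all lower, where it called 5.42% of all genes lower and 10.6% in either direction. Without replicate 1 or without replicate 2 it called 0 of 60. A fit on the 2 replicates that go the same way is not an independent test. Apart from its dye swap, no label or protocol sets replicate 3 apart from the others. Its arrays were dimmer. Median Cy3 intensity was 2783 and 3378 in replicates 1 and 2, against 1660 on the first array of replicate 3 and 2358 on its dye swap. For Cy5 it was 4893 and 5186, against 3990.5 and 4107. The part of these intensities in the ratios was not tested.

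The 9 factors that were lower in all 3 replicates (18.5% of all genes) were *NOP56*, *UTP15*, *UTP7*, *NOP14*, *KRI1*, *BFR2*, *DBP2*, *NOP2* and *NOP12*, and 0 were higher in all 3 (18.7%). The 8 with an unadjusted p below 0.05 were the same without *NOP14* and *KRI1* and with *NSR1*. They did not come from 1 complex, for they included a snoRNP protein, factors of both subunits, a helicase and a methyltransferase. The 9 of 60 were a smaller share than the 18.5% of all genes, so this count does not set the factors apart. The 8 of 60 were about the same share as the 13.3% of all genes with such a limma p in either direction. They were a larger share than the 5.39% of all genes that were lower.

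*DBP2* had the lowest mean ratio of the set. It encodes a DEAD-box RNA helicase, the yeast counterpart of mammalian p68, with roles in rRNA processing and in mRNA metabolism. Its level was 14.27, 14.42 and 14.46 in the mutants of replicates 1, 2 and 3, against 14.97, 15.49 and 14.74 in wild-type cells, so that every mutant level lay below every wild-type level. It was the only one of the 60 whose strains did not overlap. Over all genes, 2.77% showed this with the mutant below and 4.11% with the mutant above. The 1 of 60 was a smaller share than either, so this count does not set the factors apart. It also rests on levels compared between arrays. The ratios were -0.70, -1.07 and -0.28, with a mean of -0.68 ± 0.39 (SD, n = 3) and a 95% interval of -1.12 to -0.25, and limma gave an adjusted p of 0.234.

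*NSR1*, the gene of the yeast nucleolin-like protein needed for small subunit rRNA processing, was the other factor whose mean passed 1.5-fold, which 1.31% of all genes did downward and 2.45% upward. Its ratios of -0.74, -1.04 and 0.0081 averaged -0.59 ± 0.54 (SD, n = 3), with a limma adjusted p of 0.344. On the 2 arrays of replicate 3 it had -0.14 and, on the dye swap, 0.15, so the value near 0 is the mean of opposite signs. No factor passed 2-fold on the mean, as 0.4% of all genes did in each direction.

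Among the core proteins of box C/D snoRNPs, which carry out 2′-O-methylation, the scaffold gene *NOP56* was lower in every replicate. Its level was 15.14, 15.11 and 14.64 in mutants and 15.67, 15.71 and 14.70 in wild-type cells of replicates 1, 2 and 3. The ratios were -0.53, -0.60 and -0.06, with a mean of -0.40 ± 0.29 (SD, n = 3) and a limma adjusted p of 0.340. *NOP1*, which encodes fibrillarin, the methyltransferase of the same particles, had ratios of -0.41, -0.38 and 0.24, and *NOP58*, which encodes the second scaffold protein, had the sign pattern of *NOP1*.

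The 2 box H/ACA genes differed from each other. *CBF5*, which encodes the pseudouridine synthase (dyskerin in humans), had levels of 13.35, 13.99 and 13.78 in mutants and 13.87, 14.76 and 13.45 in wild-type cells. Its ratios were thus -0.52, -0.77 and 0.32, a mean of -0.32 ± 0.57 (SD, n = 3). *GAR1*, whose product binds Cbf5 in the same particle, had the weakest shift of the 60 in replicate 1 at -0.23, was at 0.00 in replicate 2 and reached 0.36 in replicate 3. Its mean of 0.04 ± 0.30 (SD, n = 3) was 1 of the 2 means above 0, the other being that of *UTP20*.

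The 5 genes of the U3 snoRNP and the Mpp10 complex, which pair the U3 RNA with the precursor rRNA, were all below 0 in replicates 1 and 2 and above 0 in replicate 3, with medians of -0.53, -0.48 and 0.10. *MPP10*, the name-giving scaffold, had -0.73, -0.64 and 0.07 (mean -0.43 ± 0.44, SD, n = 3). *IMP4*, whose product helps join U3 to its target, had -0.55, -0.26 and 0.25.

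The UTP-A, UTP-B and UTP-C complexes are parts of the processome. Their 8 genes had medians of -0.50, -0.40 and 0.39, the most positive of the 9 role groups in replicate 3. *UTP22*, of the UTP-C complex, contributed ratios of -0.33, -0.39 and 0.53, which nearly cancelled to a mean of -0.06 ± 0.51 (SD, n = 3). *UTP15*, a WD-repeat subunit of UTP-A, was the exception of the group, with -0.50, -0.49 and -0.12 and the smallest SD of the 60 (mean -0.37 ± 0.21, n = 3), and its limma adjusted p was 0.309.

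*UTP20* had the widest spread of the set. Its level in the mutants was 12.50, 13.13 and 12.82, against 13.15, 13.54 and 11.51 in wild-type cells of replicates 1, 2 and 3. The range over replicates was 0.63 in mutants and 2.03 in wild-type cells, and the wild-type level of replicate 3 lay below all other levels of the gene. The ratios were -0.65, -0.41 and 1.31, and the last was seen on both arrays of replicate 3, at 1.33 on the first and 1.28 on the dye swap. Among all genes it ranked 39 from the top in that replicate. The mean was 0.08 ± 1.07 (SD, n = 3), with a limma adjusted p of 0.945.

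The other 13 small subunit and 90S factors had medians of -0.65, -0.46 and 0.08, and 4 of the 13 stayed below 0 throughout. *BFR2*, a processome factor first found through resistance to brefeldin A, had -0.70, -0.45 and -0.19, with a mean of -0.45 ± 0.25 (SD, n = 3) and a limma adjusted p of 0.283. *UTP7*, a WD-repeat protein of the processome, had -0.61, -0.61 and -0.14 (mean -0.45 ± 0.27, SD, n = 3). *LTV1*, which takes part in late assembly and export of the small subunit, had the lowest ratio of the 60 in replicate 1, at -0.94, and 0.15 in replicate 3.

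*RRP5* and *RRP12*, in the same group, had positive ratios in replicate 3. *RRP5* acts in the making of both subunits. Its level was 14.98, 15.07 and 14.61 in mutants and 15.65, 15.54 and 14.24 in wild-type cells, which gave ratios of -0.67, -0.48 and 0.37. *RRP12*, which encodes a HEAT-repeat factor for export of both subunits, had -0.67, -0.53 and 0.47 and a mean of -0.24 ± 0.62 (SD, n = 3).

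The 9 DEAD-box helicases, which unwind RNA duplexes during assembly, had medians of -0.65, -0.52 and 0.17, and 8 of them were above 0 in replicate 3, *DBP2* being the exception. *ROK1*, which helps release the snR30 snoRNA, was the mildest on the mean, with -0.43, -0.34 and 0.16. *HAS1*, a helicase of both subunits, was close to equal in replicate 3, at 0.01 and 0.03 on its 2 arrays, after -0.49 and -0.45 in replicates 1 and 2.

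Among genes of the large subunit, the 3 of the Nop7-Erb1-Ytm1 complex, which is required for processing of the precursor of the 5.8S and 25S rRNA, had medians of -0.67, -0.54 and 0.17. Within it, *NOP7* had -0.64, -0.39 and 0.17 and *YTM1* had -0.69, -0.54 and 0.16, so that these 2 were close in each replicate. Methyltransferases that act on the 25S rRNA were less uniform. *NOP2*, a cytosine methyltransferase, was lower throughout, with -0.57, -0.62 and -0.10 (mean -0.43 ± 0.28, SD, n = 3, limma adjusted p 0.309). *SPB1*, a ribose methyltransferase, had -0.53, -0.30 and 0.27, and *RRP8*, an adenine methyltransferase, had -0.77, -0.55 and 0.39.

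The remaining 14 large subunit factors had medians of -0.61, -0.42 and 0.26, and 13 of them were above 0 in replicate 3. The exception was *NOP12*, which encodes an RNA-binding protein for 25S rRNA processing, with -0.59, -0.53 and -0.15 (mean -0.42 ± 0.24, SD, n = 3, limma adjusted p 0.291). *EBP2*, for early large subunit assembly, had the lowest mean of the 14, from -0.88, -0.46 and 0.05. *NOP53*, whose product brings the exosome helicase Mtr4 to the particle, had the mean closest to 0, from -0.52, -0.34 and 0.47.

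In the levels of each strain, replicate 3 stood apart more in wild-type cells than in mutants. Taken relative to each gene's mean over all levels, the median of the 60 was -0.35, 0.13 and -0.27 in the mutants of replicates 1, 2 and 3. In wild-type cells it was 0.25, 0.62 and -0.46. The wild-type level of replicate 3 was below those of both other replicates for 51 of the 60, whereas the mutant level of replicate 3 was the lowest of the mutants for only 25. The range over replicates had a median of 0.69 in mutants and 1.06 in wild-type cells, and was wider in wild-type cells for 50 of the 60. These counts were not made over all genes. On the first array of replicate 3 and its dye swap, the wild-type median was -0.59 and -0.44 for the ribosomal protein genes. It was -0.41 and -0.39 for 99 other biogenesis factors, and -0.02 and -0.02 over all genes, so a low wild-type level there was not particular to the 60. Levels are compared across arrays of 1 slide after quantile normalization of their average intensity. They therefore carry differences between arrays, which the ratio within an array does not.

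**Figure D2:**
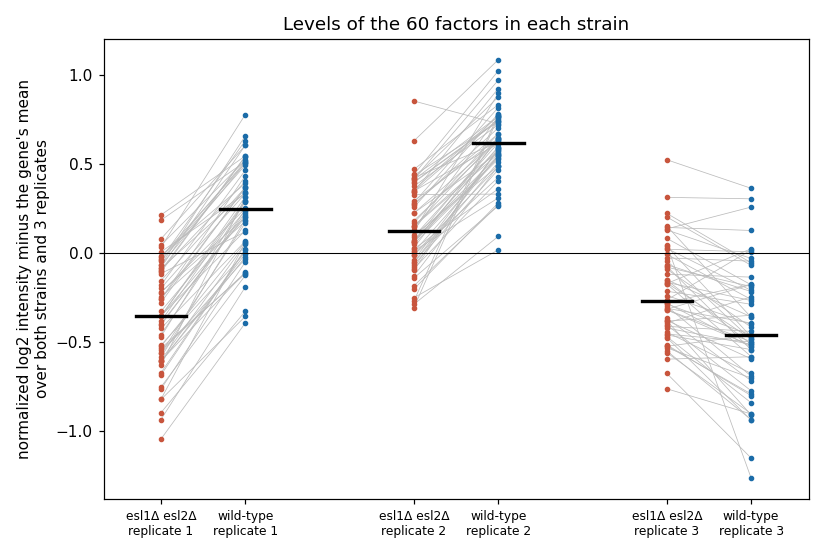
Normalized log2 intensity of each of the 60 factors minus that gene's mean over all levels, for *esl1Δ esl2Δ* (left) and wild-type (right) in each replicate, with a line at the median. The wild-type points of replicate 3 (median -0.46) lie lowest, and those of replicate 2 (median 0.62) lie highest.

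The 2 arrays of replicate 3, with opposite dyes, gave the same sign for 48 of the 60. Of the 60, 40 were above 0 and 8 below 0 on both arrays, counts that were not made over all genes. The medians of the 60 were 0.20 on the first array and 0.19 on the dye swap. The part of the ratio that turned with the dye had a median of -0.01 and an SD of 0.09 over the 60, against an SD of 0.11 over all genes. Replicates 1 and 2 had no dye swap, and their dye part was not measured.

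Gene by gene, the 60 ratios of replicate 3 bore little relation to those of the other replicates. Across the 60 factors, which share arrays and are not independent of each other, Pearson's r was 0.38 for replicates 1 and 2, 0.01 for replicates 1 and 3, and 0.22 for replicates 2 and 3. The 2 arrays of replicate 3 gave an r of 0.75. Over all 6252 genes the same r values were 0.68, 0.10, 0.21 and 0.84. By ranks (Spearman) they were 0.65, -0.03, 0.08 and 0.76 over all genes and 0.42, -0.02, 0.18 and 0.62 over the 60. The weak relation of replicate 3 to the others was thus not particular to the 60.

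**Figure D3:**
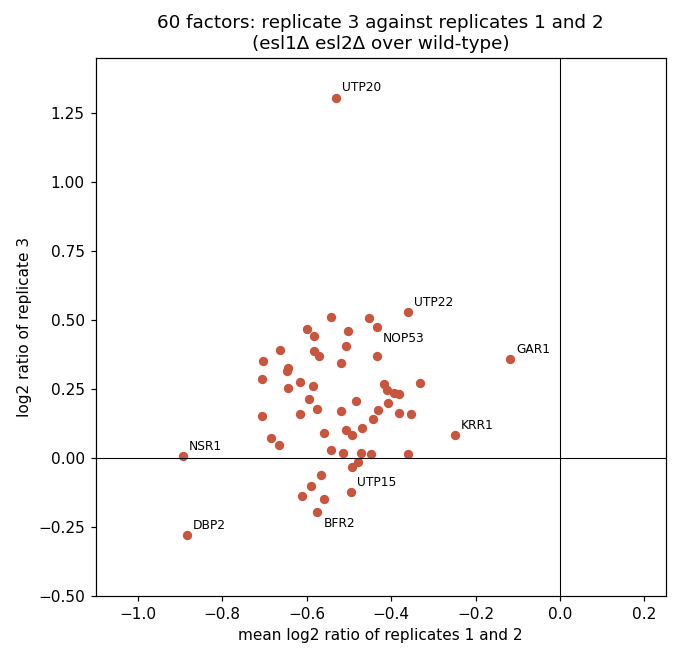
Log2 ratio of *esl1Δ esl2Δ* over wild-type in replicate 3 (vertical) against the mean of replicates 1 and 2 (horizontal) for the 60 factors, 1 point each. All points lie left of 0, 51 lie above 0 on the vertical axis, *UTP20* stands alone at 1.31 and *DBP2* is the lowest at -0.28.

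The biogenesis factors were set beside the 137 cytosolic ribosomal protein genes, which are known to be expressed with them, in a comparison made after the data were seen. Ribosomal protein genes had median ratios of 0.00, 0.12 and 0.67 in replicates 1, 2 and 3, and 137 of 137 were above 0 in replicate 3. The median of the 60 factors minus that of the ribosomal protein genes was -0.59, -0.58 and -0.48, a mean of -0.55 ± 0.06 (SD, n = 3). That difference thus kept its sign and nearly its size while the factors' own median ran between -0.59 and 0.19. In replicates 1, 2 and 3, 60, 59 and 59 of the 60 lay below the ribosomal protein median. On the 2 arrays of replicate 3 taken singly, the difference was -0.61 and, on the dye swap, -0.41. With median centring in place of loess the difference of the mean ratios was -0.79 rather than -0.58. Many ribosomal protein genes are near-identical pairs, and how far their probes read both copies was not tested.

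Other genes of ribosome synthesis took the same course as the 60. A further 99 biogenesis factors had medians of -0.55, -0.37 and 0.18, with 99, 92 and 21 of them below 0 in replicates 1, 2 and 3. By limma 0 of the 99 were called after adjustment, where 0.112% of all genes were, and 12 had an unadjusted p below 0.05, all lower, where 5.39% of all genes were lower and 7.93% higher. They include *FAF1*, a small subunit factor, at -0.91, -0.70 and 0.13, and *DBP7*, a helicase of the large subunit, at -0.77, -0.81 and 0.03. The 7 genes for subunits of RNA polymerase I, which makes the precursor, had medians of -0.54, -0.27 and 0.30. *RPA43*, with the largest mean in size, had -0.69, -0.65 and 0.24, and the largest subunit gene *RPA190* had -0.60, -0.52 and 0.48.

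Of 13 genes for regulators of this set, 11, 12 and 3 were below 0 in replicates 1, 2 and 3. *TOD6*, which encodes a repressor that binds the PAC element found before many biogenesis genes, had -0.90, -0.80 and -0.13 (mean -0.61 ± 0.42, SD, n = 3, limma adjusted p 0.283). *CRF1*, with the next largest mean in size, had -0.32, -0.53 and 0.14. Its levels were low, at 6.98 to 7.52 in mutants and 6.90 to 8.05 in wild-type cells. The probes of the deleted genes had 6.87 to 7.95 in the mutants. In wild-type cells the *CRF1* probe was well above background on 3 of 4 arrays, so its ratios may reflect little signal. *DOT6*, the paralog of *TOD6*, had -0.02, -0.51 and 0.42. *STB3*, which encodes a repressor that binds the RRPE element, had -0.11, -0.28 and -0.32, below 0 in every replicate as *TOD6* was. The part of these regulators in the factors' values was not tested.

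**Figure D4:**
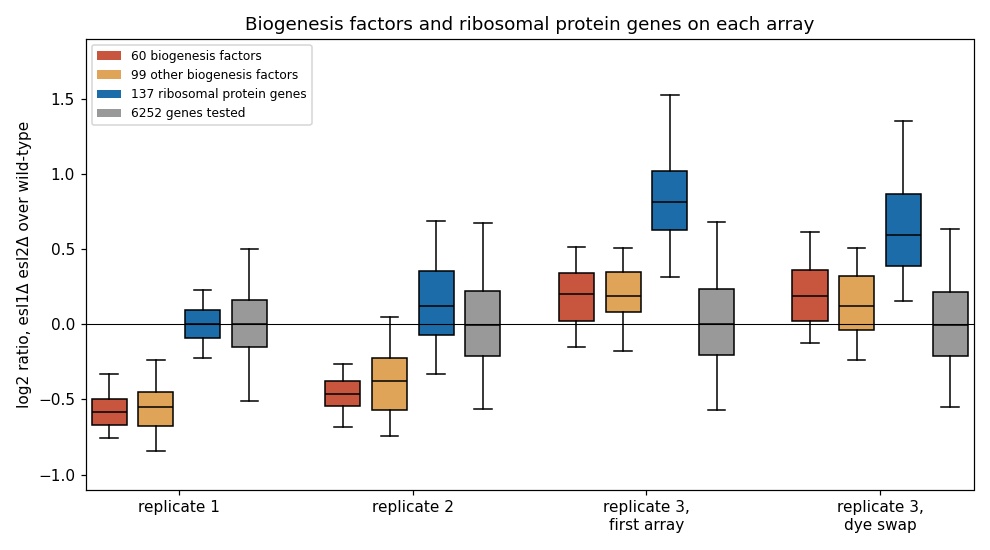
Log2 ratios of *esl1Δ esl2Δ* over wild-type on each of the 4 arrays for the 60 factors, 99 other biogenesis factors, 137 ribosomal protein genes and all 6252 genes tested. Boxes show quartiles and whiskers the 5th to 95th percentiles, and the 60 factors (medians -0.59, -0.46, 0.20 and 0.19) lie below the ribosomal protein genes on every array.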

How the data were processed

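Starting from 500 ng of RNA per sample, the authors deposited median foreground and background intensities of each spot, read by Feature Extraction 10.1.1.1. The deposited files also hold its log10 ratio of red over green, dye-normalized, which was used as an alternative. With limma 3.58.1 (R 4.3.3; tables read by the data.table package, version 1.17.8), intensities were corrected by normexp (offset 50) and normalized by loess. The 536 control spots and 291 to 486 outlier spots per array were left out, spots of a probe were averaged, and log2 ratios were turned to *esl1Δ esl2Δ* over wild-type. Ratios were tested against 0 with lmFit and eBayes (two-sided, Benjamini-Hochberg over 6252 genes, 5.27 degrees of freedom). Levels were taken after Aquantile normalization. The code was tested on simulated data. Only 3 replicates limit the precision.

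Names came from open reading frames, with 5756 probes matched to assembly R64. The array design is older, so no coordinates are given. The members and gene lists were chosen with earlier results of these data known. Named factors are the highest and lowest mean of each role group, the smallest p in each direction, the largest SD, and *NOP1*, *NSR1*, *CBF5* and *RRP5*, and in other lists the largest means. *NOP58*, *LTV1*, *HAS1* and *KRR1* were added after their values were seen. *UTP10*, *DOT6* and *STB3* were also named outside this rule. Alternatives covered background, normalization, dim probes, dye swap, model and each replicate left out.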

Additional observations from a re-analysis of the deposited data

How the results depend on the processing

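The median log2 ratio of the 60 factors was -0.30 and stayed below 0 under every alternative run. It ran from -0.52 to -0.14 when each replicate was left out in turn, and was closest to 0, at -0.029, with all 4 arrays in 1 fit with a dye term. By its construction that fit gives the dye swap as much weight as the other arrays together. It also counts the arrays of replicate 3, which share RNA, as separate samples. The number called by limma was 0 under all alternatives but one, with a range of 0 to 43 over the replicates left out, the 43 being without replicate 3. The count with an unadjusted p below 0.05 (8) became 1 with the dye term and 1 for separate channels with no replicate block, and ran from 1 to 58 over the replicates left out. The ratio within an array is the paired comparison. The count past 1.5-fold (2) was 1 with the series table or the equal Feature Extraction log ratio, median centring, the dye swap alone for replicate 3 or the dye term, was 0 at 2-fold, and ran from 0 to 18 over the replicates left out. The 9 lower in all replicates became 14 without the dye swap and 9 to 59 over the replicates left out, and the 0 higher in all became 0 to 1. The difference from the ribosomal protein median (-0.58) was -0.79 with median centring and -0.48 with the dye term.

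Over all genes limma called 7. It called 1 with the Feature Extraction ratio or the series table, 11 with median centring, 4 with the dye swap alone, and 2, 3 and 662 without replicates 1, 2 and 3. With the dye term, 21 of the 60 had a value above 0 where their mean was below 0. Of the factors named in the text, *UTP22* was 0.27, *UTP10* 0.22, *NOP53* 0.18, *RRP12* 0.10, *RRP5* 0.074, *RRP8* 0.056, *NOP1* 0.047, *CBF5* 0.039 and *SPB1* 0.010. *UTP22* was also above 0 with median centring, at 0.013. The causes were not tested. The planned count of promoter motifs was not run. Over the replicates left out, *UTP22* ran from -0.36 to 0.10, *NOP53* from -0.43 to 0.066, *GAR1* from -0.12 to 0.18 and *UTP20* from -0.53 to 0.45. No array gives the dye effect of replicates 1 and 2.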

Other observations

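The 84 genes whose reference length is 5000 bases or more, a list made after the data were seen, had median log2 ratios of -0.08, -0.17 and 0.28 in replicates 1, 2 and 3. They include 3 of the 60 factors, *RRP5*, *UTP10* and *UTP20*. *UTP10*, a HEAT-repeat protein of the UTP-A complex, had 0.40 on the first array of replicate 3 and 0.61 on its dye swap, against -0.50 and -0.41 in replicates 1 and 2. RNA quality was not measured in these files, and its part in the ratios of long genes was not tested.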
